A study of Mus musculus with 16 samples.

Results

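Secreted Wnt ligands, their surface receptors, the R-spondins that amplify them, the secreted proteins that block them and the first steps of the nuclear response were followed at the RNA level in cultured smooth muscle cells of the mouse aorta. The genes were chosen by name alone: every row of the deposited table with a Wnt, Fzd, Sfrp, Dkk or Rspo symbol, Lgr4, Lgr5 or Lgr6, and the single genes Sost, Wif1, Notum, Lrp5, Lrp6, Ror1, Ror2, Axin2, Ctnnb1, Lef1, Tcf7, Tcf7l1 and Tcf7l2. This gave 47 genes of the 20581 in the table, namely 13 ligands, 14 receptors and co-receptors, 6 R-spondins and Lgr receptors, 8 secreted antagonists and 6 effectors. Sostdc1, which the rule also names, was not analysed here. Of the 47 genes, 38 reached 1 CPM (a count scaled to library size) in at least 4 of the 16 libraries and were tested.

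The study had 4 groups of 4 libraries, formed by genotype and culture medium, all from male mice of the strain C57BL/6J. KO cells came from RBC.ARG1-KO mice, in which floxed Arg1 is deleted in the red blood cell lineage by Cre recombinase driven by the erythropoietin receptor (EpoR) promoter, and WT cells from RBC.ARG1-WT mice. Cre thus acts in another lineage than the cells sequenced, and their Arg1 RNA does not check the genotype. Cells in DMEM were kept with 10% fetal bovine serum. Cells in DIAM spent 10 days in DMEM with dexamethasone at 0.1 µM, insulin at 1 µM and L-ascorbic acid at 50 µg/mL, a mixture used to promote lipid accumulation, so the agents cannot be told apart from each other or from the change of medium. The sources do not state whether serum was kept in DIAM. The design text gives 4 biological replicates and the library protocol speaks of triplicates.

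Wnt ligands bind Frizzled receptors together with the co-receptors Lrp5 and Lrp6, which protects beta-catenin (Ctnnb1) from destruction, so that it enters the nucleus and acts with TCF/LEF factors. R-spondins bind Lgr receptors and keep Frizzled proteins on the surface, Sfrp proteins bind Wnt ligands, and Dkk proteins and sclerostin (Sost) bind Lrp5 and Lrp6. Some ligands, Wnt5a among them, instead signal through Ror1 and Ror2 without beta-catenin. In the vessel wall the pathway is known for roles in smooth muscle proliferation and calcification, and elsewhere beta-catenin signalling is known to restrain the formation of fat cells.

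Each library held between 37221192 and 47626331 estimated counts. All 8 smooth muscle markers on a fixed list were detected, with a summed level of 2292 to 3995 CPM in DMEM and 1048 to 2094 CPM in DIAM, and Myh11 between 51.3 and 187 CPM. They did not move together with DIAM. By edgeR, at an adjusted p under 0.05, 1 rose and 4 fell in WT cells, and 2 rose and 4 fell in KO cells. Acta2, Tagln, Cnn1 and Smtn fell and Myocd rose in both genotypes, and Myh11 passed in neither. Summed levels of 5 adipocyte markers lay between 6.88 and 19.5 CPM in DMEM and between 502 and 1311 CPM in DIAM, and those of 8 fibroblast markers between 1948 and 2265 CPM in DMEM and between 2808 and 3336 CPM in DIAM. Of the fibroblast markers, 6 rose and 2 fell in each genotype. The means of Lum and Col14a1 fell in WT cells, from 151 to 56.3 and from 1147 to 603 CPM. Those of Ly6a and Dcn rose, from 139 to 934 and from 421 to 840 CPM. Leukocyte markers (4 of 6 in the table) summed to between 740.0 and 2138 CPM over the 16 libraries. Most of this was Lyz2, with group means from 1039 to 1417 CPM, while those of Ptprc lay between 6.94 and 14.2 CPM. Some libraries stood apart. In DIAM, 7 Schwann or neuronal markers summed to 201, 270.3, 134 and 127 CPM in WT replicates 1 to 4 and to 49.6, 60.8, 89.0 and 97.2 CPM in KO replicates 1 to 4. The 6 mesothelial markers were high in KO replicates 1 and 4 in both media, at 326, 85.2, 62.8 and 339 CPM in DMEM and 593, 217, 202 and 669.8 CPM in DIAM. In bulk RNA, fewer cells of a type and less RNA per cell cannot be told apart, which holds for every gene below.

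For 31 of the 47 genes the RefSeq promoter table of mouse build GRCm38.p6 held at least 1 window of 250 bases before a transcription start, 40 windows in all. The deposited values refer to GRCm39, so these coordinates are those of the older build. The windows were searched on both strands for CTTTGA, the core of the TCF/LEF binding motif (TCAAAG on the other strand), and for the palindromic consensus of the glucocorticoid response element, because DIAM contains dexamethasone. The first was present in 5 of 40 windows (12.5%) and in 4544 of all 32851 windows (13.83%). The second was present in 0 of 40 windows and in 127 of all windows (0.3866%). At so low a share, 0 of 40 cannot tell these windows from others. Sfrp1, Sfrp4, Rspo2, Rspo3, Lgr5 and Fzd8, which fell in DIAM, had no window to search. The 5 windows shown belong to the gene with the deepest fall (Sost), to the gene most used as a readout of beta-catenin (Axin2), and to Wnt11, Ror1 and Fzd1. Wnt11, Ror1 and Fzd1 changed in DIAM in both genotypes, and their windows shown hold the TCF/LEF core, given in capitals. The core was also present in 1 window each of Wnt5b, called in WT cells alone, and Lef1, below the filter, which are not shown. A second window of Wnt11 held no match. A match describes these letters and is no evidence of binding. Positions are chr11:101967016-101967265 on the minus strand for Sost, chr11:108920099-108920348 on the plus strand for Axin2, chr7:98834862-98835111 on the plus strand for Wnt11, chr4:100095541-100095790 on the plus strand for Ror1 and chr5:4758217-4758466 on the minus strand for Fzd1. The core begins 50 bases before the start in Wnt11, 205 before it in Ror1 and 242 before it in Fzd1.
Sost: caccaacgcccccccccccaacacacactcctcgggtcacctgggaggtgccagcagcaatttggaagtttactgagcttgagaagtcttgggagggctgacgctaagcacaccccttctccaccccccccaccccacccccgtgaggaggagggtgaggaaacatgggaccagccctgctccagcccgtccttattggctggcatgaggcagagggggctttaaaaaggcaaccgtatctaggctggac
Axin2: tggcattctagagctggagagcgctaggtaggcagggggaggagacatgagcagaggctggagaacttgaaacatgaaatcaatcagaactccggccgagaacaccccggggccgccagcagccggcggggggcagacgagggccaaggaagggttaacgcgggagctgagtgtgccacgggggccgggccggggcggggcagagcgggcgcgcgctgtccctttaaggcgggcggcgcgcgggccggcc
Wnt11: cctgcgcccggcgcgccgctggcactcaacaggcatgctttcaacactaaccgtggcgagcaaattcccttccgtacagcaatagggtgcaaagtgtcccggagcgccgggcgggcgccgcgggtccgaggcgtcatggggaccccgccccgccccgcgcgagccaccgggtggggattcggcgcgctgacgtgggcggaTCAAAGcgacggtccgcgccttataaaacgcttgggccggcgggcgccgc
Ror1: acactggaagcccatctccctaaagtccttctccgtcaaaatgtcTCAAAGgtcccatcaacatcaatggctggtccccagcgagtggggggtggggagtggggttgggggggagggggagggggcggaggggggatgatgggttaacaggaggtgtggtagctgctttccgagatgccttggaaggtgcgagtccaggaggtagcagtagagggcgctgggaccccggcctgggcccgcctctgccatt
Fzd1: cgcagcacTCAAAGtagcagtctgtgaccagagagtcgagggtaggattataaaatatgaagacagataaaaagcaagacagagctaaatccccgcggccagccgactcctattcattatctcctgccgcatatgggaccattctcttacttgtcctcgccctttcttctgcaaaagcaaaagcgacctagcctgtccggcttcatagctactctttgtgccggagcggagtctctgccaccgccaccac

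The move to DIAM was followed by lower RNA for most of the receptors, the R-spondins Rspo2 and Rspo3, their receptor Lgr5 and the 3 Sfrp antagonists, while Axin2, Tcf7l1, Dkk2, Ror1 and the ligands Wnt2b, Wnt6 and Wnt11 rose. In WT cells, 29 of the 38 genes changed at an adjusted p under 0.05 (edgeR quasi-likelihood test, Benjamini-Hochberg or BH adjustment over 14217 genes), 8 upwards and 21 downwards. Of all genes tested 55.1% changed in the same comparison, 27.6% upwards and 27.5% downwards. The median log2 fold change of the 38 genes was -0.44, beside -0.01 over all genes. In KO cells, 30 of the 38 genes changed, 11 upwards and 19 downwards, beside 60.7% of all genes, with 29.8% upwards and 30.8% downwards. The median was -0.31 for the 38 genes and -0.02 for all genes. A change of at least 1 on the log2 scale was found for 16 genes in WT cells, 6 up and 10 down, and for 17 in KO cells, 7 up and 10 down, beside 15.1% and 17.1% of all genes. The 4 DMEM libraries and the 4 DIAM libraries did not overlap for 28 of 38 genes in WT cells (49.0% of all genes) and for 26 in KO cells (55.1% of all genes).

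Across the genotypes, 7 genes rose in both and 18 fell in both, and no gene rose in one and fell in the other. Wnt5b, Lrp6, Dkk3 and Tcf7 passed the test in WT cells alone, and Wnt2, Fzd3, Fzd4, Lgr4 and Rspo1 in KO cells alone. By edgeR none of these passed the test of the interaction, which does not show a difference between genotypes in their response to DIAM. The level of Fzd3 in DIAM did differ between genotypes (log2 -1.01, edgeR BH-adjusted p = 0.0120), as given below. Wnt4, Wnt9a, Lgr6 and Tcf7l2 passed the test of the media in neither genotype. The 2 comparisons use different libraries, with 4 per group in each.

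**Figure D1:**
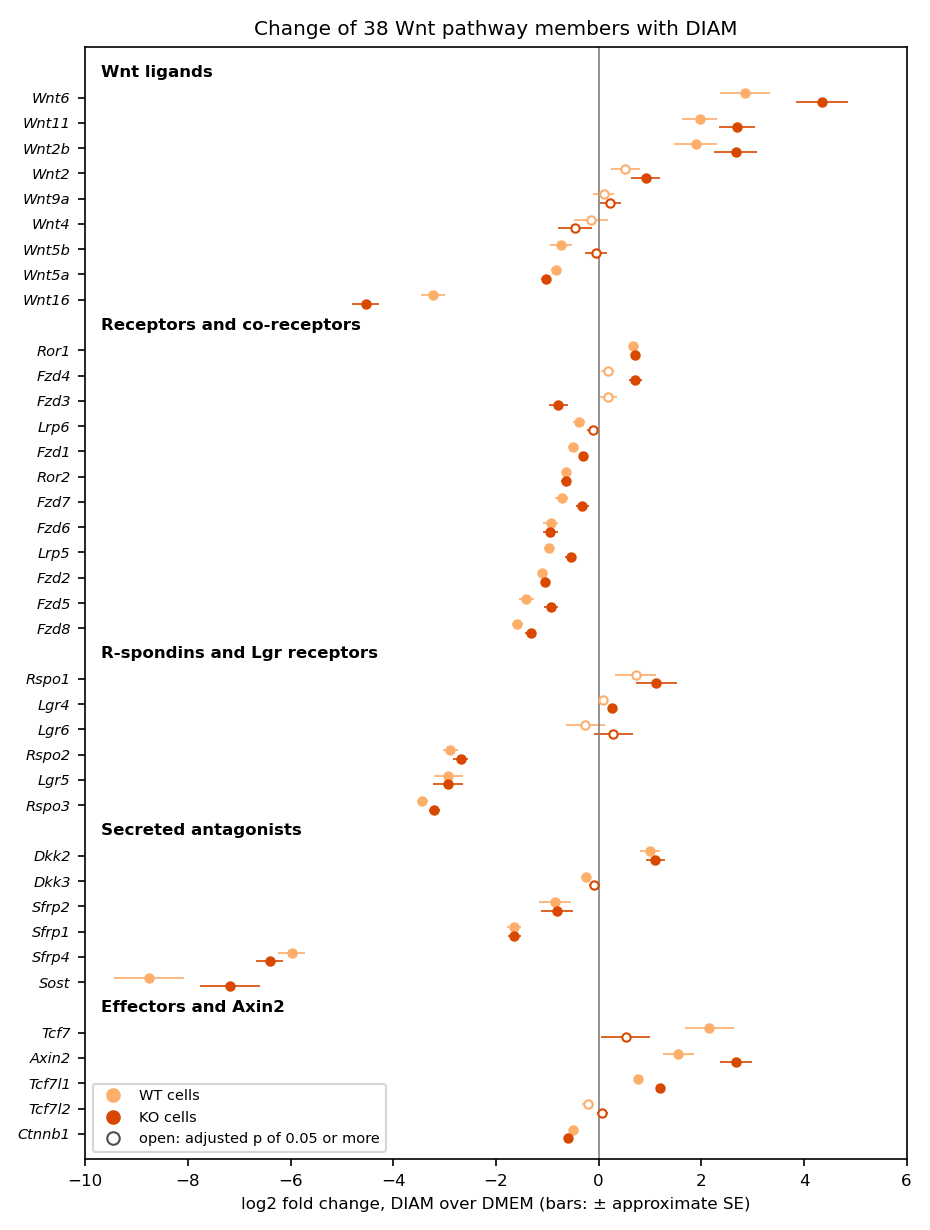
Log2 fold change of the 38 tested genes, DIAM over DMEM, with approximate standard errors, grouped by role; pale points are WT cells, dark points KO cells, and open points have an adjusted p of 0.05 or more. The receptors lie mostly left of 0, Sost and Sfrp4 lie furthest left, and Wnt6 lies furthest right.

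Among the 9 ligands tested, 3 rose and 3 fell in WT cells, and 4 rose and 2 fell in KO cells. Wnt16, a ligand known for its role in bone, was the ligand with the deepest fall. Its level was 14.8, 15.9, 13.4 and 15.2 CPM in the WT libraries in DMEM and 1.72, 2.42, 1.13 and 1.05 CPM in DIAM. The KO values were 13.5, 20.04, 14.2 and 17.9 CPM in DMEM and 0.466, 0.875, 0.575 and 0.883 CPM in DIAM. Every DIAM library lay below every DMEM library, and the 4 KO libraries in DIAM lay below the 4 WT libraries in DIAM. The log2 fold change was -3.22 ± 0.23 (SE) in WT cells and -4.54 ± 0.26 in KO cells, with edgeR BH-adjusted p of 9.41e-09 and 4.53e-10.

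Wnt5a, the ligand best known for signalling without beta-catenin, held 42.9, 43.4, 53.3 and 37.9 CPM in WT cells in DMEM and 24.8, 24.1, 28.5 and 22.2 CPM in DIAM. KO cells held 41.0, 37.2, 40.9 and 40.1 CPM in DMEM and 17.5, 20.8, 18.7 and 21.3 CPM in DIAM. It fell in both genotypes without overlap of libraries, by 1.78-fold in WT cells and 2.03-fold in KO cells (edgeR BH-adjusted p = 2.43e-06 and 2.10e-07). Despite the fall it remained the ligand with the highest level per length in WT cells: 5.67 ± 0.824 CPM per kilobase of exon (SD, n = 4) in DMEM and 3.18 ± 0.338 in DIAM. The next ligands per kilobase in WT cells were Wnt16 (3.402 ± 0.248) and Wnt9a (2.26 ± 0.577) in DMEM, and Wnt9a (2.42 ± 0.392) and Wnt2b (1.75 ± 1.04) in DIAM, so that Wnt5a and Wnt9a lay about as far apart in DIAM as their spread.

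Wnt2b, a ligand of the beta-catenin branch, went the other way. In WT cells it was 1.48, 1.55, 1.99 and 2.90 CPM in DMEM and 4.62, 3.06, 8.96 and 12.7 CPM in DIAM. For KO cells the level was 3.04, 2.71, 1.20 and 3.28 CPM in DMEM and 21.0, 13.9, 11.6 and 18.6 CPM in DIAM. The media did not overlap in either genotype, and the 4 KO libraries in DIAM spanned 11.6 to 21.0 CPM, overlapping WT replicate 4. Its log2 fold change was 1.89 ± 0.42 in WT cells and 2.67 ± 0.42 in KO cells (edgeR BH-adjusted p = 0.00135 and 5.42e-05). Per kilobase of exon, Wnt2b in KO cells in DIAM reached 3.88 ± 1.03, beside 2.82 ± 0.765 for Wnt9a and 2.50 ± 0.227 for Wnt5a. The ranges of mean ± SD of Wnt2b and Wnt9a overlapped, and their order was not tested. The mesothelial markers moved with Wnt2b in each group. Their libraries stood in the same order as those of Wnt2b in WT cells in both media and in KO cells in DMEM. In KO cells in DIAM both were higher in replicates 1 and 4 than in replicates 2 and 3. The part of these markers in the result was not tested.

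Wnt6 and Wnt11 were scarce in DMEM, at 0.120 ± 0.0597 and 0.832 ± 0.360 CPM (SD, n = 4) in WT cells. In DIAM they reached 0.878 ± 0.206 and 3.25 ± 1.10 CPM in WT cells and 1.86 ± 0.287 and 4.56 ± 1.22 CPM in KO cells. Wnt11 is a ligand of cell polarity and movement. The log2 fold changes of Wnt6 were 2.86 and 4.35 and those of Wnt11 1.97 and 2.70 in WT and KO cells, with edgeR BH-adjusted p of 1.19e-04, 1.53e-06, 1.37e-04 and 5.72e-06. Wnt5b, a close relative of Wnt5a, fell in WT cells from 1.49 ± 0.213 to 0.902 ± 0.184 CPM (BH-adjusted p = 0.00927) and was at 1.28 ± 0.304 and 1.23 ± 0.213 CPM in KO cells (BH-adjusted p = 0.850). Without WT replicates 1 and 2 in DIAM, the libraries with the highest Schwann markers, the log2 fold change of Wnt5b was -0.50 with a BH-adjusted p of 0.123. Wnt2 rose in KO cells from 0.620 ± 0.156 to 1.18 ± 0.269 CPM (BH-adjusted p = 0.00989; 0.0732 without the mesothelial-high KO replicates 1 and 4), and in WT cells it was 0.705 ± 0.239 and 1.02 ± 0.188 CPM (BH-adjusted p = 0.125). Wnt9a, with group means from 7.54 to 9.39 CPM, and Wnt4, with group means from 1.59 to 2.20 CPM, passed no test of the media.

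The remaining 4 ligands in the table were below the filter. Wnt10a, Wnt7a and Wnt7b had between 0 and 11 counts in any library. Wnt10b, a ligand known to block fat cell formation, had 34 counts over the 4 WT libraries in DMEM and 256 in DIAM, and 44 and 60 counts in KO cells. Summed over all 13 ligands, the level was 74.1 ± 5.90 CPM for WT and 72.1 ± 4.39 CPM for KO cells in DMEM, and 51.6 ± 6.04 and 57.2 ± 6.66 CPM in DIAM.

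Receptor RNA fell for most genes: of 12 tested, 9 fell and 1 rose in WT cells, and 9 fell and 2 rose in KO cells. Fzd8 showed the deepest fall among the Frizzled genes in both genotypes. Its level was 97.8, 112, 111 and 92.1 CPM in WT cells in DMEM and 37.3, 28.0, 37.0 and 34.8 CPM in DIAM, and 93.1, 87.5, 102 and 92.6 CPM and 32.2, 37.3, 45.2 and 35.8 CPM in KO cells. All DIAM libraries lay under 46 CPM and all DMEM libraries above 87. The log2 fold change was -1.59 ± 0.11 in WT cells and -1.32 ± 0.11 in KO cells (edgeR BH-adjusted p = 3.74e-09 and 2.43e-08).

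Fzd5, a receptor of the beta-catenin branch, went from 77.5, 100.3, 98.9 and 77.2 CPM to 34.1, 23.5, 40.5 and 35.2 CPM in WT cells and from 90.7, 71.5, 91.5 and 80.1 CPM to 45.9, 45.4, 44.5 and 39.3 CPM in KO cells. The media did not overlap in either genotype; the lowest DIAM value was that of WT replicate 2. This was a fall of 2.65-fold in WT and 1.91-fold in KO cells (edgeR BH-adjusted p = 5.30e-07 and 3.08e-05). Fzd2 held 103, 113, 121 and 112 CPM in WT cells in DMEM and 52.3, 49.0, 55.1 and 51.7 CPM in DIAM. KO cells gave 102, 104, 117 and 101 CPM and 46.2, 52.2, 58.0 and 49.3 CPM. The libraries of each group lay close together, and the fall was 2.16-fold and 2.06-fold (BH-adjusted p = 2.25e-09 and 3.71e-09).

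Fzd6, Fzd1 and Fzd7, further Frizzled receptors, fell in both genotypes, with log2 fold changes in WT and KO cells of -0.94 and -0.94 for Fzd6, -0.51 and -0.30 for Fzd1, and -0.72 and -0.32 for Fzd7, and edgeR BH-adjusted p between 4.89e-05 and 0.0349. The call of Fzd7 in KO cells, with means of 101 ± 11.6 and 80.6 ± 8.57 CPM, was lost when KO replicate 1, 3 or 4 in DMEM or KO replicate 1 or 4 in DIAM was left out. Without KO replicates 1 and 4, the libraries high in mesothelial markers, the log2 fold change of Fzd7 in KO cells was -0.11 and that of Fzd1 -0.19 (BH-adjusted p = 0.614 and 0.203).

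Fzd4, the receptor for norrin as well as Wnt ligands, was the exception among the abundant Frizzled genes. It was 159.9, 184, 221 and 191 CPM in WT cells in DMEM and 203, 151, 249.7 and 251 CPM in DIAM. KO libraries held 170.2, 168, 185 and 172 CPM in DMEM and 267, 303, 298 and 274 CPM in DIAM. All 4 KO libraries in DIAM lay above the other 12 libraries, and WT replicate 2 in DIAM was the lowest of all 16. Fzd4 rose 1.64-fold in KO cells (edgeR BH-adjusted p = 1.84e-04). In WT cells the log2 fold change was 0.18 ± 0.13 (BH-adjusted p = 0.260) and, without replicate 2 in DIAM, 0.32 (BH-adjusted p = 0.00878).

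On the scale of CPM per kilobase of exon, Fzd1 was the most abundant Frizzled transcript in DMEM, at 48.1 ± 3.82 for WT and 48.1 ± 4.08 for KO cells (SD, n = 4). Fzd2 (30.7 ± 1.92) and Fzd4 (28.1 ± 3.74) followed in WT cells, with overlapping ranges of mean ± SD. Then came Fzd7 (22.4 ± 2.37), Fzd8 (17.3 ± 1.62), Fzd5 (12.8 ± 1.86), Fzd6 (3.06 ± 0.285) and Fzd3 (0.749 ± 0.0426). In DIAM the leading pair was Fzd1 and Fzd4, at 33.9 ± 3.54 and 31.8 ± 7.05 in WT cells and 39.1 ± 2.55 and 42.5 ± 2.64 in KO cells. Their ranges of mean ± SD overlapped in each genotype, and the order of the pair was not tested. Fzd2, second in WT cells in DMEM, held 14.2 ± 0.689 in WT and 14.04 ± 1.37 in KO cells in DIAM. Fzd9 and Fzd10 were below the filter, with at most 40 and 11 counts in a library. The summed CPM of all 10 Frizzled genes was 821 ± 73.8 for WT and 784 ± 43.2 for KO cells in DMEM, and 556 ± 82.9 and 677 ± 37.6 in DIAM.

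**Figure D2:**
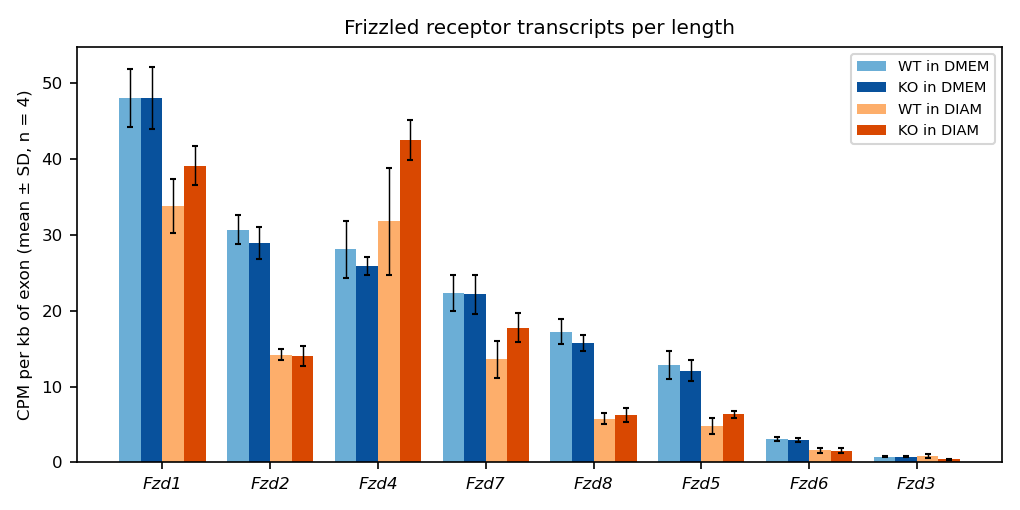
Frizzled transcripts in CPM per kilobase of exon, as means with SD over 4 libraries in each of the 4 groups; Fzd9 and Fzd10 were below the filter. Bars fall from DMEM to DIAM for Fzd1, Fzd2, Fzd5, Fzd6, Fzd7 and Fzd8, and the tallest bar in KO cells in DIAM is Fzd4.

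Fzd3, a receptor known for axon guidance and cell polarity, was the least abundant tested Frizzled gene per length. Its level was 10.4, 9.38, 9.52 and 9.11 CPM in WT cells in DMEM and 12.5, 14.9, 8.32 and 7.59 CPM in DIAM, and 9.82, 8.95, 8.13 and 10.2 CPM and 4.97, 5.83, 4.38 and 6.34 CPM in KO cells. WT replicates 1 and 2 in DIAM were the 2 highest of all 16 libraries, and the 4 KO libraries in DIAM were the 4 lowest. In KO cells Fzd3 fell 1.72-fold (log2 -0.79 ± 0.18, edgeR BH-adjusted p = 0.00140), while in WT cells the value was 0.17 ± 0.18 (BH-adjusted p = 0.425). That WT value turned negative without WT replicate 2 in DIAM (log2 -0.02) and was -0.27 without WT replicates 1 and 2 in DIAM, the libraries with the highest Schwann markers (BH-adjusted p = 0.127).

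Of the co-receptors, Lrp5 was 77.3, 96.9, 95.1 and 103 CPM in WT cells in DMEM and 45.9, 37.8, 52.1 and 54.7 CPM in DIAM. In KO cells Lrp5 was 89.5, 91.0, 98.1 and 89.1 CPM and 58.2, 62.8, 61.9 and 68.6 CPM. Its libraries did not overlap between media in either genotype, nor between genotypes in DIAM. Lrp5 fell 1.96-fold in WT and 1.462-fold in KO cells (edgeR BH-adjusted p = 8.32e-07 and 2.30e-04). Lrp6, its close relative, was 160.3, 209, 203 and 203 CPM in WT cells in DMEM and 152, 127, 151 and 163 CPM in DIAM. KO cells held 179, 193, 161 and 221 CPM and 146, 192, 177 and 183 CPM of Lrp6, and the media overlapped in both genotypes. Lrp6 fell 1.31-fold in WT cells (BH-adjusted p = 0.00806), a call lost without WT replicates 1 and 2 in DIAM (BH-adjusted p = 0.0758), and its log2 fold change in KO cells was -0.11 ± 0.11 (BH-adjusted p = 0.401). Per kilobase, Lrp6 lay above Lrp5 in both media of WT cells, at 14.2 ± 1.66 and 9.57 ± 1.14 in DMEM and 10.9 ± 1.11 and 4.89 ± 0.770 in DIAM.

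The 2 receptors of the beta-catenin-independent branch moved in opposite directions. Ror1 rose from 96.9 ± 7.46 to 154 ± 7.88 CPM for WT cells and from 90.5 ± 7.93 to 147 ± 6.82 CPM for KO cells (edgeR BH-adjusted p = 5.30e-07 and 2.25e-07). Ror2 fell from 20.6 ± 1.14 to 13.3 ± 0.837 CPM and from 20.7 ± 1.897 to 13.3 ± 1.56 CPM (BH-adjusted p = 1.33e-05 and 8.99e-06). The fold change was 1.58 upwards for Ror1 and 1.55 downwards for Ror2 in WT cells, with no overlap between media for either gene.

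R-spondin RNA dropped steeply. Rspo3, an R-spondin with known roles in vessels, was 153, 153, 158 and 131 CPM in WT cells in DMEM and 15.3, 11.7, 15.6 and 12.2 CPM in DIAM. The KO values were 148, 123, 141 and 156 CPM and 17.0, 14.6, 14.6 and 15.6 CPM. No DIAM library exceeded 17.0 CPM and no DMEM library was under 123. The fall was 10.8-fold in WT and 9.20-fold in KO cells, with edgeR BH-adjusted p of 5.03e-13 and 1.01e-12. Rspo2, which like Rspo3 binds Lgr receptors, was 201, 244, 220.0 and 200.4 CPM in WT cells in DMEM and 30.8, 27.9, 27.1 and 30.9 CPM in DIAM, and 209, 141, 243 and 215 CPM and 27.1, 28.9, 36.7 and 32.8 CPM in KO cells. KO replicate 2 was the lowest in DMEM and still lay above every DIAM library. Rspo2 fell 7.42-fold and 6.44-fold (BH-adjusted p = 1.93e-10 and 3.26e-10).

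Rspo1 did not follow the other R-spondins. It was 5.14, 6.79, 6.24 and 7.82 CPM in WT cells in DMEM and 8.75, 7.11, 12.7 and 14.3 CPM in DIAM, and 12.4, 5.20, 3.98 and 12.7 CPM and 25.8, 11.9, 10.6 and 26.5 CPM in KO cells. The media overlapped in both genotypes, while each DIAM library lay above the DMEM library of its own replicate number. The numbers were not taken to pair the samples. In both media KO replicates 1 and 4 lay above replicates 2 and 3. These are the replicates with high mesothelial markers, whose part in the result was not tested; without them the log2 fold change in KO cells was 1.29 (edgeR BH-adjusted p = 0.00412). Rspo1 rose 2.18-fold in KO cells (edgeR BH-adjusted p = 0.0224), a call lost in 4 of the fits that left out 1 library, namely KO replicate 2 or 3 in DMEM and KO replicate 1 or 4 in DIAM. In WT cells the log2 fold change was 0.72 ± 0.40 (BH-adjusted p = 0.138), and 0.72 with a BH-adjusted p of 0.0117 when KO replicates 1 and 4 were left out of the shared fit. With only the groups compared, the BH-adjusted p was 0.0192 in WT cells and 0.0665 in KO cells, and the authors' deposited table gives 0.00469 for WT cells. With replicate number as a block in the fit, Rspo1 was called in both genotypes. The calls of Rspo1 therefore depended on the fit in both genotypes. Summed over the 3 R-spondins the level was 372 ± 28.4 CPM for WT and 353 ± 56.5 CPM for KO cells in DMEM, and 53.6 ± 4.73 and 65.5 ± 8.59 CPM in DIAM.

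Lgr5, a receptor for R-spondins and a stem cell marker in several epithelia, fell as Rspo2 and Rspo3 did. Its level was 14.2, 23.3, 16.5 and 30.7 CPM in WT cells in DMEM and 2.74, 2.44, 2.28 and 3.65 CPM in DIAM, and 19.2, 14.01, 30.2 and 16.5 CPM and 2.20, 2.48, 2.44 and 3.35 CPM in KO cells. The DMEM libraries spread widely, up to 30.7 CPM, yet no DIAM library exceeded 3.65 CPM. The fall was 7.63-fold in WT and 7.64-fold in KO cells (edgeR BH-adjusted p = 3.99e-07 and 3.32e-07). Lgr4, another R-spondin receptor, had means of 32.3 ± 2.46 and 34.5 ± 3.72 CPM in WT cells (BH-adjusted p = 0.390) and rose in KO cells from 32.1 ± 3.74 to 38.7 ± 1.30 CPM (BH-adjusted p = 0.0154), a call lost without KO replicate 3 in DMEM (BH-adjusted p = 0.0580) or without KO replicates 1 and 4 (0.0504). Lgr6 had group means of 3.58 to 4.76 CPM and passed no test.

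**Figure D3:**
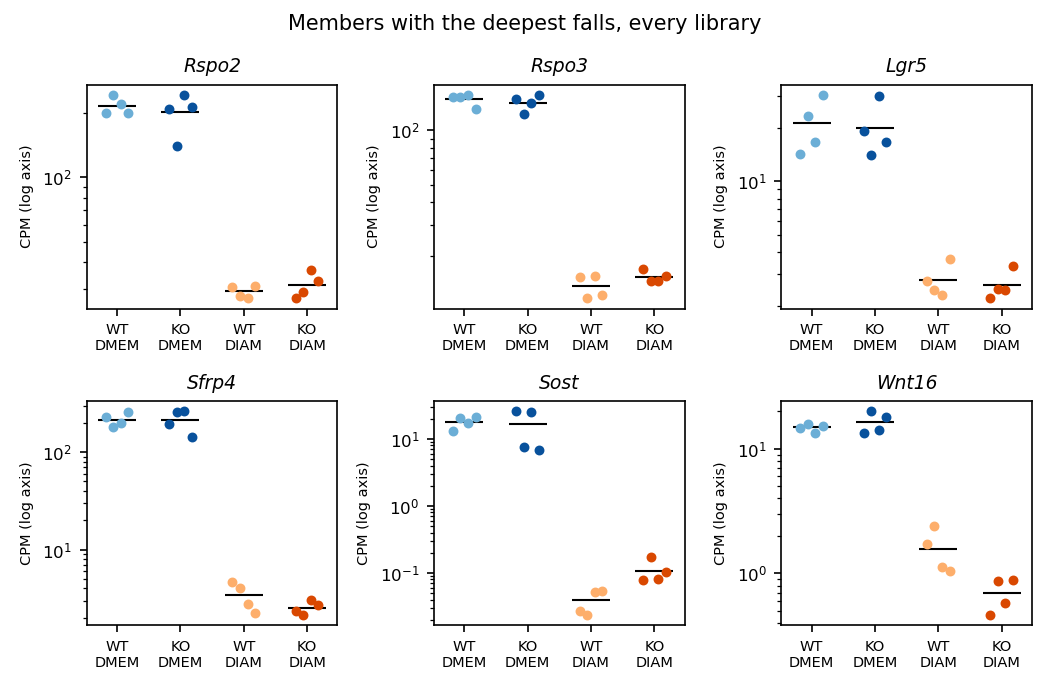
CPM on a log axis in every library for Rspo2, Rspo3, Lgr5, Sfrp4, Sost and Wnt16; points are the 4 libraries of each group and bars their mean. In each panel all 8 DIAM libraries lie below all 8 DMEM libraries.

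Of 6 secreted antagonists tested, 5 fell and 1 rose in WT cells, and 4 fell and 1 rose in KO cells. Sfrp1, a soluble relative of the Frizzled receptors, was by far the most abundant gene of the set. It was 3637, 4102, 4439.8 and 4286 CPM in WT cells in DMEM and 1341, 1210.0, 1372 and 1333 CPM in DIAM. For KO cells the level was 4356, 4199.9, 3186 and 5781 CPM and 1364, 1329, 1356 and 1564 CPM. The DMEM libraries of KO cells spread from 3186 to 5781 CPM, whereas DIAM libraries of both genotypes stayed between 1210.0 and 1564 CPM. Sfrp1 fell 3.13-fold and 3.12-fold (edgeR BH-adjusted p = 3.20e-08 and 2.61e-08), and per kilobase of exon it still held 301 CPM in WT cells in DIAM, after 941 in DMEM.

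Sfrp4, another family member, nearly disappeared. WT cells held 228, 182, 198 and 256 CPM in DMEM and 4.65, 4.03, 2.75 and 2.22 CPM in DIAM, and KO cells 196, 261, 263 and 142 CPM and 2.33, 2.14, 3.01 and 2.68 CPM. The highest DIAM library, WT replicate 1, stood at 4.65 CPM and the lowest DMEM library, KO replicate 4, at 142 CPM. The fall was 63.2-fold in WT and 85.0-fold in KO cells (edgeR BH-adjusted p = 6.98e-11 and 3.97e-11). Sfrp2 fell from 65.7 ± 20.03 to 36.6 ± 5.92 CPM for WT cells and from 65.7 ± 33.1 to 37.4 ± 11.8 CPM for KO cells (BH-adjusted p = 0.0311 and 0.0335). The Sfrp2 call in WT cells was lost without replicate 2 or 3 in DMEM or replicate 1, 3 or 4 in DIAM, and the call in KO cells without replicate 2 or 3 in DIAM or replicate 4 in DMEM. Leaving out the last of these moved the log2 fold change in KO cells to -0.40 (BH-adjusted p = 0.183). The 3 Sfrp genes together held 4398 ± 350.2 CPM for WT and 4662 ± 1045 CPM for KO cells in DMEM, and 1354 ± 64.9 and 1443 ± 118 CPM in DIAM.

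Sost encodes sclerostin, an inhibitor of Lrp5 and Lrp6 that is known from bone and is also made in the aorta. It was 13.01, 20.6, 17.3 and 21.6 CPM in WT cells in DMEM and 0.0274, 0.0237, 0.0513 and 0.0536 CPM in DIAM. KO cells gave 25.9, 7.47, 25.6 and 6.75 CPM in DMEM and 0.0776, 0.1701, 0.0822 and 0.104 CPM in DIAM. The KO libraries in DMEM fell into a pair near 26 CPM and a pair near 7, and every DIAM library had 1 to 7 counts. In sums, 3048 counts in DMEM stood against 6 in DIAM in WT cells and 2608 against 17 in KO cells. After scaling, these are ratios of 464 (95% interval 213 to 1267) in WT and 149 (92.8 to 256) in KO cells, with intervals that cover counting error only. Sost fell in both genotypes by edgeR, with BH-adjusted p of 4.00e-08 and 6.28e-08.

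Dkk2, an antagonist of Lrp6 that can also activate it, rose. It was 27.0, 30.4, 39.5 and 33.3 CPM in WT cells in DMEM and 55.6, 61.1, 69.2 and 74.8 CPM in DIAM, and 34.4, 30.4, 38.6 and 48.2 CPM and 68.5, 76.1, 64.6 and 117 CPM in KO cells. The media did not overlap, and KO replicate 4 was the highest in each medium. Dkk2 rose 2.002-fold in WT and 2.15-fold in KO cells (edgeR BH-adjusted p = 3.53e-04 and 1.22e-04). Dkk3, a divergent family member, was abundant in every group; it fell in WT cells from 326 ± 36.4 to 274 ± 10.2 CPM (BH-adjusted p = 0.0217), a call lost without WT replicate 2 or 3 in DMEM or WT replicate 1 in DIAM. In KO cells its log2 fold change was -0.10 ± 0.09 (BH-adjusted p = 0.345). Notum and Wif1 were below the filter: Notum, a lipase that inactivates Wnt ligands, had 24 and 81 counts over the 4 WT libraries in DMEM and DIAM and 28 and 87 in KO cells, and Wif1, which binds Wnt ligands, 58 and 37 counts in WT and 63 and 13 in KO cells.

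Among the effectors and feedback genes, Axin2, a scaffold of the destruction complex that beta-catenin itself induces in many tissues, rose from a low level. It was 1.18, 1.34, 1.42 and 2.92 CPM in WT cells in DMEM and 4.71, 3.27, 6.03 and 6.14 CPM in DIAM. KO libraries held 1.36, 1.11, 1.05 and 1.53 CPM and 7.81, 7.58, 5.09 and 11.7 CPM. Every DIAM library was above every DMEM library of the same genotype; WT replicate 4 in DMEM, at 2.92 CPM, came nearest to the lowest DIAM value. Axin2 rose 2.94-fold in WT and 6.36-fold in KO cells (edgeR BH-adjusted p = 4.18e-04 and 2.12e-06). Ctnnb1, which encodes beta-catenin, went down modestly, from 799.8, 806, 844 and 801 CPM to 583, 618, 571 and 539 CPM in WT cells. In KO cells it went from 781, 786, 810.5 and 831 CPM to 533, 522, 542 and 529 CPM. Its libraries were tightly grouped and the fall was 1.41-fold and 1.51-fold (BH-adjusted p = 2.51e-07 and 2.29e-08). RNA of Ctnnb1 does not measure the protein, which is set largely by its stability.

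Tcf7l1, a TCF factor that acts mostly as a repressor, rose in both genotypes. WT cells held 25.6, 32.9, 31.4 and 29.3 CPM in DMEM and 48.8, 45.9, 56.1 and 53.0 CPM in DIAM, and KO cells 26.4, 26.9, 31.3 and 31.2 CPM and 63.4, 67.6, 70.8 and 64.9 CPM. The KO libraries in DIAM were the 4 highest of all 16. The rise was 1.71-fold in WT and 2.30-fold in KO cells (edgeR BH-adjusted p = 1.03e-06 and 4.97e-09). Tcf7, another TCF factor, rose in WT cells from 0.552 ± 0.334 to 2.47 ± 0.705 CPM (BH-adjusted p = 0.00113) and was 0.780 ± 0.491 and 1.12 ± 0.416 CPM in KO cells (BH-adjusted p = 0.351). Its highest library was WT replicate 2 in DIAM, which also had the highest Schwann markers. Tcf7l2 had group means between 17.9 and 23.1 CPM and passed no test of the media, and Lef1 was below the filter with at most 10 counts in a library.

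**Figure D4:**
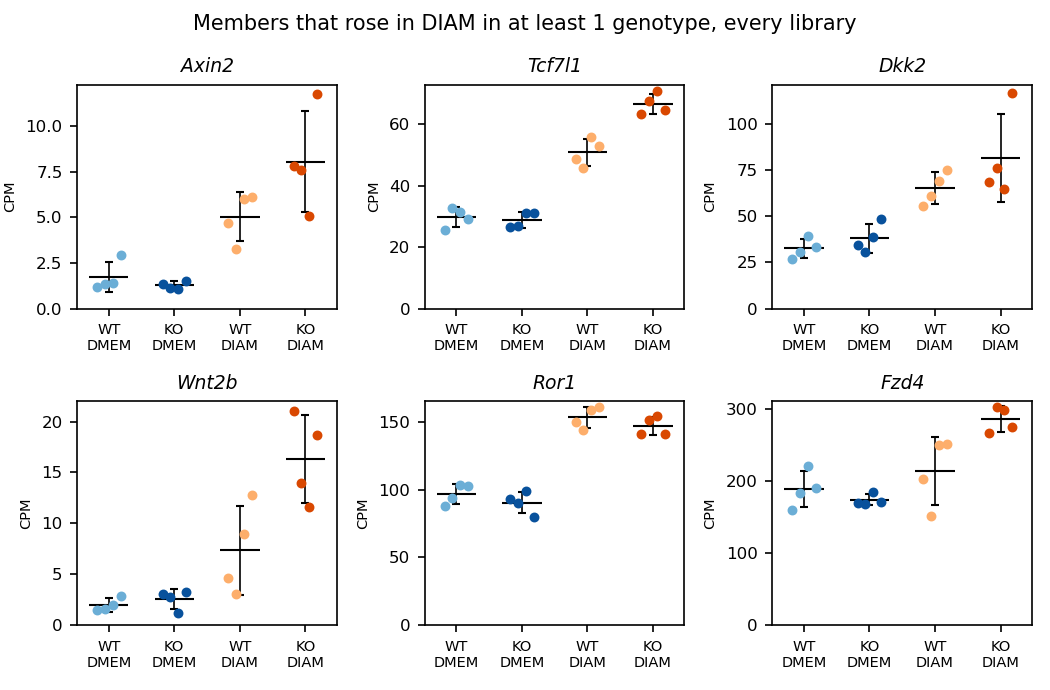
CPM in every library for Axin2, Tcf7l1, Dkk2, Wnt2b, Ror1 and Fzd4, with the mean and SD of the 4 libraries in each group. The DIAM libraries lie above the DMEM libraries of the same genotype in each panel except Fzd4 in WT cells, which did not pass the test.

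At the median, replicates of these genes spread more than those of all genes tested, in a comparison not matched for level. The median coefficient of variation over the members was 12.6% for WT and 15.9% for KO cells in DMEM and 17.0% and 14.9% in DIAM, beside 9.08%, 9.05%, 9.39% and 8.15% over all genes tested. Members of low level are part of this median. In KO cells in DMEM the coefficient ranged from 2.90% for Ctnnb1 to 117% for Wnt6, which held 0.0908 CPM.

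The rest of the pathway was read from lists of 73 further genes, of which 70 were in the table and 66 were tested. In WT cells 20 of these rose, 27 fell and 19 did not pass; in KO cells 23 rose, 22 fell and 21 did not pass. Over all genes tested, 55.1% passed in WT cells (27.6% rose and 27.5% fell) and 60.7% in KO cells (29.8% and 30.8%). Of the genes that release ligands, Wls, the carrier of Wnt proteins to the surface, fell from 608 ± 47.6 to 264 ± 5.38 CPM in WT cells (log2 fold change -1.20; edgeR BH-adjusted p = 1.63e-10). Porcn, the enzyme that attaches the lipid of Wnt ligands, rose from 6.82 ± 0.717 to 15.0 ± 1.58 CPM (1.13; BH-adjusted p = 3.09e-08). KO cells showed the same directions, with log2 fold changes of -1.24 for Wls and 1.19 for Porcn.

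Of 5 further secreted or membrane-bound modulators tested, 3 rose and 1 fell in each genotype. Apcdd1, a membrane-bound inhibitor of Wnt signalling, rose from 7.50 ± 0.880 to 58.6 ± 1.82 CPM for WT cells and from 7.33 ± 1.35 to 66.7 ± 8.10 CPM for KO cells (edgeR BH-adjusted p = 1.16e-11 and 5.10e-12). Frzb, a relative of the Sfrp genes, fell with them, from 122 ± 16.1 to 33.3 ± 8.22 CPM and from 115 ± 17.5 to 21.0 ± 2.40 CPM (BH-adjusted p = 6.50e-08 and 3.35e-09). Tpbg and Draxin, both inhibitors of the beta-catenin branch, rose by 1.10 and 1.34 on the log2 scale in WT cells. The inhibitors thus did not move as a group: Sfrp1, Sfrp2, Sfrp4, Frzb and Sost fell while Dkk2, Apcdd1, Tpbg and Draxin rose. Dkk3 fell in WT cells alone, and the calls of Sfrp2 and Dkk3 depended on single libraries, as given above.

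Of 10 other surface partners tested, 3 rose and 4 fell in WT cells and 4 rose and 2 fell in KO cells. Gpc3, a glypican, rose from 188 ± 57.9 to 609 ± 201 CPM for WT cells and from 193 ± 72.0 to 1024 ± 152 CPM for KO cells (edgeR BH-adjusted p = 3.33e-04 and 1.30e-05), and Lrp4, a receptor for sclerostin, rose by 0.73 on the log2 scale in WT cells. Ptk7, a pseudokinase receptor of cell polarity, and Ryk, a Wnt receptor, fell in WT cells, with log2 fold changes of -1.24 and -0.19. Of 12 genes of planar cell polarity, 3 rose and 5 fell in WT cells and 3 rose and 3 fell in KO cells. The related formin genes Daam1 and Daam2 went in opposite directions, Daam1 from 83.6 ± 4.32 to 37.9 ± 2.64 CPM and Daam2 from 24.8 ± 4.96 to 131 ± 26.1 CPM in WT cells (BH-adjusted p = 6.22e-09 and 2.55e-07).

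Inside the cell, 4 of 16 genes of the destruction complex and Dishevelled group rose and 8 fell, in each genotype. Apc2, Tnks and Dvl3 fell in WT cells, with log2 fold changes of -1.24, -0.95 and -0.43, and Amer1 rose, with 0.27. Of 11 nuclear cofactors and repressors, 2 rose and 5 fell in WT cells and 3 rose and 3 fell in KO cells. Pygo1, a cofactor of beta-catenin, fell from 19.0 ± 1.55 to 4.95 ± 0.351 CPM (edgeR BH-adjusted p = 1.72e-11), and the Groucho-type corepressors split, with log2 fold changes of 1.15 for Tle1, 0.97 for Tle4 and -1.07 for Tle2. Of 10 genes listed as targets of beta-catenin, 4 rose and 3 fell in WT cells and 5 rose and 4 fell in KO cells. Fosl1, Myc and Ccnd1 rose by 2.22, 1.42 and 1.03 in WT cells, and the log2 fold change of Ccn5 was -0.70, so the rise of Axin2 was not shared by the whole target list.

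KO and WT cells were then compared within each medium, which asks whether loss of Arg1 in the red blood cell lineage of the donor mice left a trace in the cultured cells. In DMEM none of the 38 genes differed by edgeR (0% of all genes passed), and none had an unadjusted p under 0.05, beside 438 of all genes. DESeq2 called 0 of these genes and 1 of all genes. The libraries of the genotypes overlapped for all 38 genes in DMEM, where 1.60% of all genes did not overlap.

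In DIAM, 5 of the 38 genes differed between genotypes by edgeR, beside 8.38% of all genes. Lrp5 and Tcf7l1 were higher in KO cells, beside 3.43% of all genes, and Wnt16, Wnt5a and Fzd3 were lower, beside 4.95%. Fzd3 and Wnt16 differed by more than 1 on the log2 scale, beside 1.17% of all genes. Libraries of the genotypes did not overlap for 10 of 38 genes, namely these 5 and Wnt6, Fzd4, Lgr4, Sost and Tcf7l2, beside 16.4% of all genes. Fzd3, with the library values above, was 2.01-fold lower in KO cells (log2 -1.01 ± 0.18, edgeR BH-adjusted p = 0.0120), and Wnt16 2.25-fold lower (-1.17 ± 0.27, BH-adjusted p = 0.0204). Wnt5a was 1.27-fold lower (-0.35 ± 0.10, BH-adjusted p = 0.0424). Lrp5 was 1.32-fold higher (0.40 ± 0.10, BH-adjusted p = 0.0296) and Tcf7l1 1.31-fold higher (0.39 ± 0.08, BH-adjusted p = 0.0156). Wnt6 and Fzd4, at log2 1.08 and 0.42, did not pass (BH-adjusted p = 0.0859 and 0.0565).

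These differences were less secure than those between media. With the spread estimated from the 8 DIAM libraries alone, edgeR called 0 of the 38 genes and 0 of all genes, with adjusted p from 0.0655 to 0.0822 for the 5 genes. Leaving out 1 library at a time gave between 1 and 7 genes. Over all genes these fits gave 43 to 643 higher and 135 to 837 lower, beside 487 and 704 with all 16 libraries. Fzd3 was called in each of these fits, and without KO replicate 2 in DIAM it alone was. That fit also gave the fewest calls over all genes, 43 higher and 135 lower. Sox10, a marker of Schwann cells, was 50.0, 69.9, 31.9 and 30.9 CPM in WT and 2.64, 10.1, 17.1 and 17.0 CPM in KO cells in DIAM, so the DIAM libraries with the most Sox10, WT replicates 1 and 2, were also those with the most Fzd3 and Wnt16. The part of Schwann cells in the result was not tested. The 5 adipocyte markers summed to 832, 502, 896 and 915 CPM in WT and to 1311, 1228, 913 and 1197 CPM in KO cells in DIAM, so that KO replicate 3 alone lay within the WT range. Of these markers Plin1, a coat protein of fat droplets, was called higher in KO cells (log2 0.81; edgeR BH-adjusted p = 0.0494), and the part of these markers in the genotype differences was not tested. Without WT replicates 1 and 2 in DIAM none of the 38 genes passed, and of all genes 0 were higher and 1 was lower. The log2 difference in that fit was -0.56 for Fzd3, -0.63 for Wnt16, 0.24 for Lrp5, -0.37 for Wnt5a and 0.29 for Tcf7l1. Without the mesothelial-high KO replicates 1 and 4 none of the 38 passed either, and of all genes 0 were higher and 0 lower. The log2 differences there were -1.08 for Fzd3 and 0.44 for Tcf7l1. The loss of calls in both fits was thus that of the whole table. The first of these fits leaves 2 WT libraries in DIAM and the second leaves 2 KO libraries in each medium.

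**Figure D5:**
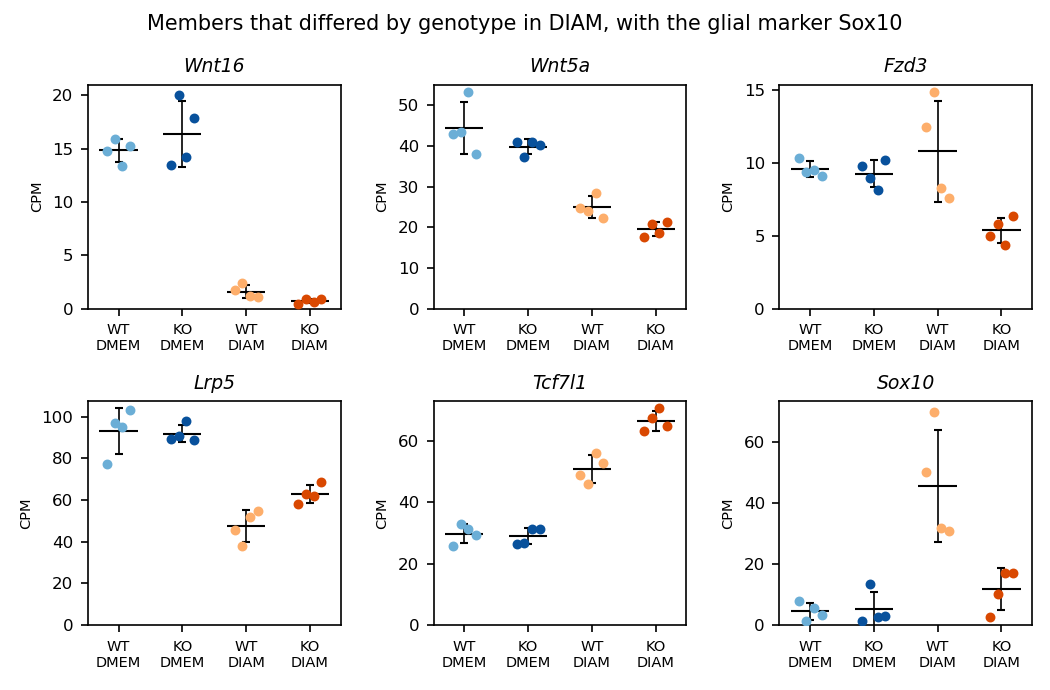
CPM in every library for the 5 members called between genotypes in DIAM and for Sox10, with the mean and SD of 4 libraries per group. In DIAM the KO libraries lie below the WT libraries for Wnt16, Wnt5a, Fzd3 and Sox10 and above them for Lrp5 and Tcf7l1, and in DMEM the genotypes overlap in all 6 panels.

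The authors' deposited table gives a wider list for the same comparison, in which 10 of the 38 genes have an adjusted p under 0.05: the 5 above and Wnt6, Fzd4, Fzd7, Tcf7 and Tcf7l2. Of the genes tested here, 12.4% pass in the authors' deposited table. DESeq2 called 12 of the 38 genes, beside 13.2% of all genes. The authors' deposited table also gives Wnt10b, below the filter here, a log2 difference of -2.10 and an adjusted p of 0.00377. Wnt10b counts were 256 over the 4 WT libraries and 60 over the 4 KO libraries in DIAM. Of the 66 further pathway genes, 4 were higher and 7 lower in KO cells in DIAM by edgeR, where 3.43% and 4.95% of all genes were. The target list held 1 of those that were higher and 5 of those that were lower, Ccnd1 among them (424 ± 73.7 CPM for WT and 295 ± 19.0 for KO cells; BH-adjusted p = 0.0139). Frzb and Vangl2 were also lower, with log2 differences of -0.66 and -0.54 (BH-adjusted p = 0.0213 and 0.0251).

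Whether the response to DIAM differed between genotypes was tested by the interaction of genotype and medium. By edgeR 0 of the 38 genes and 0% of all genes passed; 10 of the 38 had an unadjusted p under 0.05, beside 2255 of 14217 genes. The lowest were Wnt16 (log2 -1.32; BH-adjusted p = 0.176), Fzd3 (-0.96; 0.176) and Tcf7l1 (0.43; 0.179). DESeq2 called these 3 genes, as did the authors' deposited table, where the adjusted p was 0.0165 for Wnt16, 0.0295 for Fzd3 and 0.0460 for Tcf7l1. Of all genes tested here, DESeq2 called 1.58%, and 1.63% pass in the authors' deposited table. The call of an interaction for these genes therefore depended on the test used.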

How the data were processed

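Total RNA of 16 libraries, 4 per group, was sequenced after ribosomal RNA depletion with an unstranded TruSeq kit, per the labels' protocols, so overlapping antisense genes are not separated. The submitters' processing notes list Salmon 1.9.0 and DESeq2 1.46.0 under R 4.4.2, FastQC, and the build GRCm39. The library columns are called TPM in the labels, but sum to 37221192 to 47626331 and differ in sum, so what the authors deposited was taken as estimated counts and rounded to whole numbers. The authors' own log2 fold changes and adjusted p-values stand in that table too and are quoted only where named. A mean signal over all libraries, deposited by the authors per the file headers, was not used.

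Counts were scaled with TMM to CPM and tested with edgeR 4.0.16 (quasi-likelihood, robust, two-sided; R 4.3.3) over all 4 groups with 12 residual degrees of freedom, after a filter of at least 1 CPM in at least 4 of 16 libraries (14217 genes), with Benjamini-Hochberg adjustment over all of them and a threshold of 0.05. Standard errors are approximations derived from the F statistic of each gene. The labels give all libraries the same batch. Nothing but the design text states that replicates are separate cultures, so p-values measure the spread between these libraries. CPM per kilobase uses exon lengths of GENCODE M21 (GRCm38), matched by gene. Alternatives were DESeq2 1.42.0, limma 3.58.1 with pseudocounts of 1 and 0.1, other scalings and filters, a replicate block and leaving out each library; scripts were tested on simulated data. Genes named with every library were those at 5 CPM or more in a group that changed by log2 1 or more with DIAM, those called between genotypes, and Ctnnb1, Axin2, Lrp5 and Lrp6. Of each further list, up to 4 genes of smallest p in WT cells were named. Wnt10b and the library values of Fzd4 and Sox10 were added after their values were seen. The members, gene lists and tests were chosen with earlier results of these data known.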

Additional observations from a re-analysis of the deposited data

Results flagged for a closer look

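Among the Wnt genes named with their values and the further pathway genes, 256 groups of 4 libraries were examined for 1 library far from the other 3 (Dixon's test at its 95% critical value), and 16 were found, where chance gives about 1 in 20, or 12.8. For the Wnt genes the libraries that stood apart were Wnt2 in KO replicate 2 in DIAM (0.778 CPM, the others 1.27 to 1.35), Lrp6 in WT replicate 1 in DMEM (160.3 CPM, the others 203 to 209) and Ror2 in KO replicate 4 in DIAM (15.6 CPM, the others 12.2 to 12.8). Lgr6 stood apart in KO replicate 3 in DIAM at 7.29 CPM (the others 3.62 to 4.14), and Rspo3 in WT replicate 4 in DMEM at 131 CPM (the others 153 to 158). Sfrp1 was high in KO replicate 4 in DIAM at 1564 CPM, beside 1329 to 1364 CPM. Axin2 was high in WT replicate 4 in DMEM at 2.92 CPM, beside 1.18 to 1.42 CPM. Ctnnb1 was high in WT replicate 3 in DMEM at 844 CPM, beside 800 to 806 CPM.

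Among the further genes, WT replicate 2 in DIAM stood apart for Frzb (45.6 CPM, the others 28.4 to 30.0), Fosl1 (15.8 CPM, the others 20.1 to 20.3) and Myc (32.3 CPM, the others 35.6 to 36.2). KO libraries in DIAM stood apart for Tnks (replicate 1, 132 CPM, the others 155 to 157), Dact3 (replicate 3, 32.9 CPM, the others 27.9 to 28.2) and Daam2 (replicate 4, 125 CPM, the others 179 to 189). In DMEM, Daam2 was low in WT replicate 1 (17.4 CPM, the others 26.9 to 27.5) and Vangl2 was low in KO replicate 3 (8.82 CPM, the others 11.5 to 11.7).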

How the results depend on the processing

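The direction of no Wnt gene's called change reversed under the alternatives: of 2299 values recomputed for 81 gene results, 2179 kept their direction and side of the threshold, 99 lost the call, 9 gained it, and 12, none of them called, changed sign (Fzd3, Wnt4 and Wnt9a in WT cells and Dkk3, Lrp6 and Wnt5b in KO cells). Requiring a log2 fold change of at least 1 left 16 genes changed by DIAM in WT cells (10 fell), 17 in KO cells (7 rose, 10 fell) and 2 between genotypes in DIAM (0 rose). A filter at 5 CPM left 5 rising genes in WT cells, beside 3358 of all 11336 genes. For KO against WT in DIAM the count was 10 (6 rose) with quantile normalization, with limma on log2(CPM + 1) and with the authors' adjusted p, and 12 (8 rose) with DESeq2. Over all genes these gave 608, 582, 781 and 859 higher and 764, 767, 969 and 1014 lower. The count was 0 (0 rose, 0 fell) with only the groups compared or with either set of libraries high in Schwann or mesothelial markers left out, both sets chosen after the data were seen. Over all genes, these fits gave 0 higher and 0 lower, except 1 lower without the Schwann-high set. Over the interaction, DESeq2 and the authors' table each called 3 genes (1 rose, 2 fell), edgeR 0.

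Leaving out 1 library at a time gave 27 to 30 genes changed by DIAM in WT cells (8 to 9 rose, 19 to 21 fell), 27 to 30 in KO cells (9 to 11 rose, 17 to 19 fell), 1 to 7 between genotypes in DIAM (0 to 5 rose, 1 to 3 fell), and 0 in DMEM and for the interaction. Over all genes, 3667 to 3956 rose and 3574 to 3917 fell in WT cells, and 3986 to 4323 rose and 4072 to 4422 fell in KO cells. Between genotypes in DIAM, 43 to 643 of all genes were higher and 135 to 837 lower. The counts between genotypes in DIAM were 2 without WT replicate 1 or 2 in DIAM, 2 without KO replicate 1 and 1 without KO replicate 2. In the same order, 88, 123, 88 and 43 of all genes were higher and 211, 193, 187 and 135 lower. Quantile normalization shifted the split of all genes in WT cells to 3287 higher and 4886 lower. Replicate numbers were not taken to pair the samples: same-numbered libraries of the 2 media correlated between -0.09 and 0.27 in WT and between 0.0124 and 0.32 in KO cells, above 0.1 for 3 of 4 numbers in each genotype, and replicates 3 and 4 in WT and 1 and 4 in KO cells correlated best with their own number. With replicate number within each genotype as a block, Rspo1 was called in both genotypes (WT cells: log2 0.69, edgeR BH-adjusted p = 0.00196). In that fit 31 genes changed in WT cells and 30 in KO cells. Over all genes it gave 4032 rising and 3976 falling in WT cells, and 4335 and 4440 in KO cells. Between genotypes the block was replicate number across WT and KO cells, and 7 genes differed in DIAM (4 rose, 3 fell). Of all genes, 506 were higher and 685 lower in that fit. Same-numbered WT and KO libraries in DIAM correlated between -0.20 and -0.04. Depth limits the 9 genes below the filter; a count of 0 allows up to 0.0630 to 0.0806 CPM.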
